A study of Bos taurus with 6 samples.

Results

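Solute carriers are the large class of membrane proteins that move ions, metals, sugars, amino acids, nucleotides and vitamins across cell and organelle membranes. The messenger RNAs (mRNAs) of 35 genes whose symbol begins with SLC and a digit are described here, out of 26332 mRNAs listed in the deposited table of primary bovine myoblasts treated with resveratrol (RSV). SLC7A11 was left out by the rule. The deposited table gives Ensembl identifiers without gene names, and names were paired with them through the gene-name column of the study's sheets of differentially expressed (DE) mRNAs. That column names 1863 mRNAs, so a solute carrier mRNA could enter only if the authors had called it DE between the RSV and control groups. Of the 35 genes, 33 were named in the sheet of DE mRNAs and 2, SLC16A12 and SLC39A13, only in the sheet of the study's turquoise co-expression module. The 35 genes were thus selected on the adjusted P-values of the authors' comparison of the same 6 libraries, and the differences below are descriptions without a test. Solute carrier genes that the authors did not call DE, or that stand further down the sheets than the copy used here reaches, were not analysed here.

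The cells were primary myoblasts, which are precursors that fuse to form muscle fibers, taken from longissimus dorsi muscle of fetal beef cattle. In the RSV group 3 cultures received 20 μM resveratrol, a plant polyphenol dissolved in DMSO, and in the control (DMSO) group 3 cultures received the solvent alone. All 6 cultures thus received DMSO, and were kept in differentiation medium for 4 days. The cells had been freed from the muscle with enzymes and enriched by preplating, so other cell types could remain. The paper describes 3 independent experiments per group for collecting the cells. The number of fetuses behind the cultures is not given in the sources used here, so the spread between libraries may be technical in part.

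The solute carrier symbols group proteins by sequence family and not by cargo. The SLC25 family carries metabolites across the inner mitochondrial membrane, the SLC38, SLC6 and SLC43 families carry amino acids, the SLC30, SLC39 and SLC40 families carry zinc and iron, and the SLC8, SLC9 and SLC12 families exchange or cotransport inorganic ions. Many carriers of the plasma membrane draw on the sodium gradient that the sodium-potassium pump maintains. In muscle, solute carriers, with or without use of that gradient, supply amino acids for protein synthesis and export lactate. They also help return calcium and protons to their resting levels after contraction.

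Single libraries have no column in the deposited table, which gives group means of depth-corrected reads, and whole reads of the 3 libraries behind each mean were recovered from its digits for 20135 of the 20459 mRNAs with reads (98.4%), including all 35 solute carrier mRNAs. The recovered libraries are called a, b and c within each group in order of their size factor, the divisor that corrects for sequencing depth. Their letters do not name the labelled replicates and do not pair libraries across groups. Size factors ran from 1.05 to 1.09 in RSV and from 0.886 to 0.964 in DMSO, and the recovered reads summed to between 10855194 and 12964951 per library, without 324 mRNAs whose means were too high to resolve. RSV library c stood apart from the other RSV libraries. Over the 14705 mRNAs averaging 10 normalized reads or more it was the RSV library farthest from DMSO for 60.0% of them, against 18.7% for library a and 21.3% for library b. Farthest here means most extreme in the direction of the group difference fitted to all 6 libraries. Where groups overlap, an outlying library thus helps set the direction in which it is counted. Of 22 myoblast and muscle markers 8 had a name, and the 7 with recovered reads were all read in every library, 6 of them higher and 1 lower in RSV. The fusion factor MYMK had 1630 to 1998 normalized reads in RSV and 1084 to 1114 in DMSO, and the myosin light chain MYL1, the lower one, had 398.9 to 497.1 in RSV and 595.1 to 642.3 in DMSO. Of 20 markers of other cell types 4 had a name. The fibroblast marker PDGFRA had 6697 to 7277 normalized reads in RSV and 9068 to 9381 in DMSO, the monocyte marker CD14 had 27.7 to 46.5 in RSV and 8.34 to 10.4 in DMSO, and DCN and THY1 had means too high to resolve. The part of these cells in the differences below was not tested, and in such bulk samples fewer cells of a type and less RNA per cell cannot be told apart.

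Of the 35 solute carrier mRNAs 19 were higher and 16 were lower in the RSV group, with log2 fold changes (log2FC, RSV minus DMSO) from −2.59 to 2.85. No RSV library overlapped the DMSO range for 35 of the 35, where 53.3% of the 14705 mRNAs fitted did not overlap. limma voom, which fits log2 reads with a weight for how precisely each is measured, called 35 of the 35 at a Benjamini-Hochberg adjusted p under 0.05, where it called 34.0% of the mRNAs fitted, 16.7% as higher and 17.2% as lower. Nothing is read from these counts, since all 1748 named mRNAs in the fit were also called and also did not overlap. SLC25A12 lost its call when any 1 DMSO library was left out, SLC39A13 without DMSO library b or c, and SLC16A12 without DMSO library c. The median absolute log2FC was 0.75 for the solute carrier mRNAs, 0.69 for the 1748 named mRNAs and 0.25 for all mRNAs fitted. The higher direction held 54.3% of the solute carrier mRNAs, 45.1% of the named mRNAs and 50.6% of all mRNAs fitted. Most of the differences were below a doubling, with 10 of the 35 (28.6%) at an absolute log2FC of at least 1. That share was 27.3% of the named mRNAs and 8.3% of all mRNAs fitted.

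**Figure D1:**
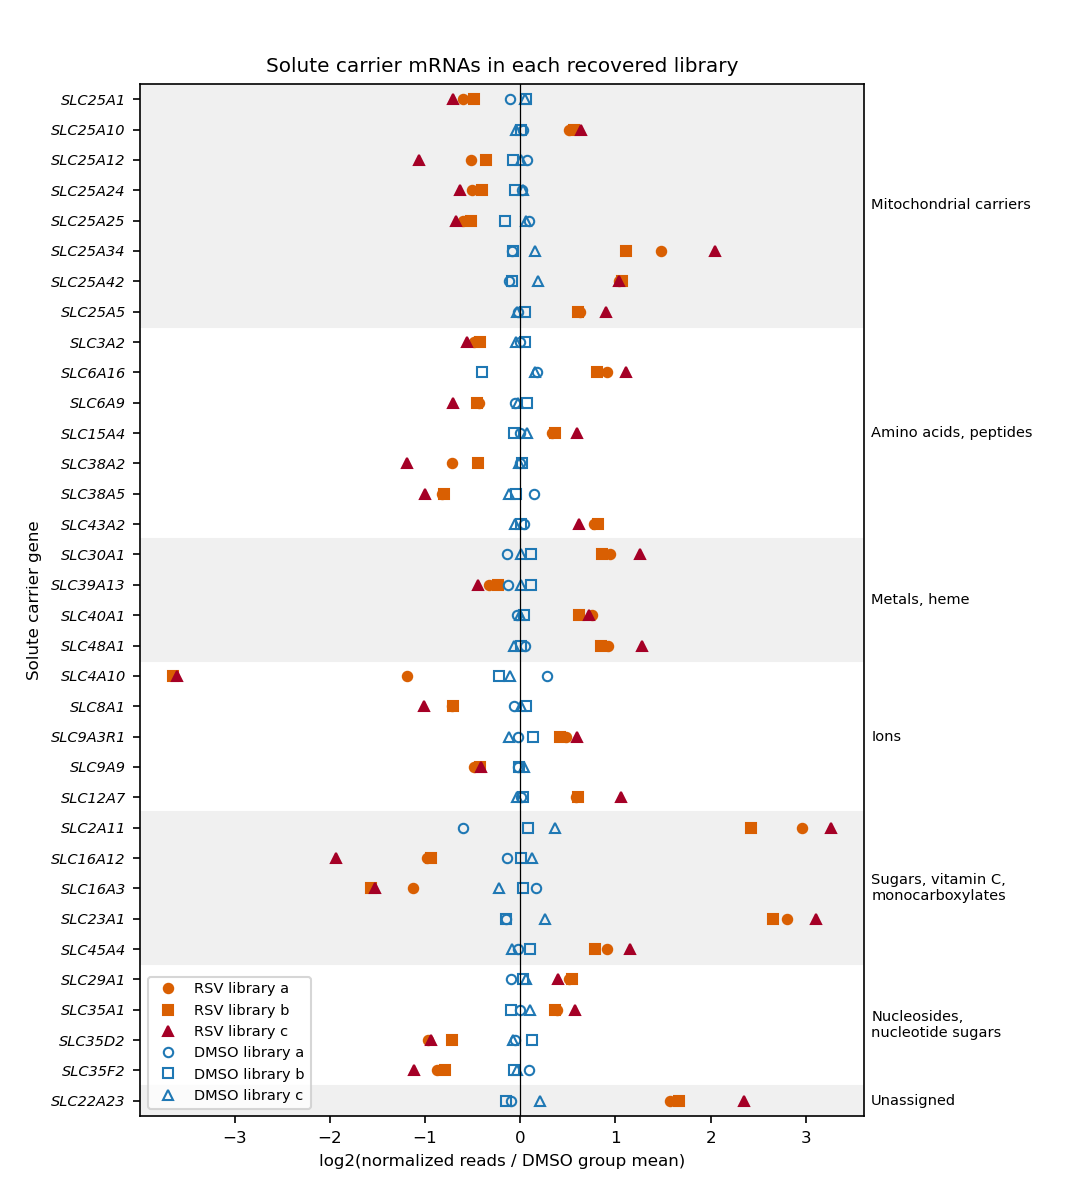
Normalized reads of 34 of the 35 solute carrier mRNAs in each recovered library, divided by the DMSO group mean and drawn on a log2 axis, with filled orange or dark red symbols for RSV libraries and open blue symbols for DMSO libraries. The genes stand in 7 groups by transport role, the letters do not pair libraries across groups, and in every row all filled symbols lie on the same side of all open ones.

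The 8 mitochondrial carriers of the SLC25 family were divided, with 4 higher and 4 lower in RSV and log2FC from −0.64 to 1.53. SLC25A1 (ENSBTAG00000008528) is the citrate carrier, which takes citrate out of the mitochondrion, where it feeds fatty acid and sterol synthesis. It had 3271, 3549 and 3045 normalized reads in RSV libraries a, b and c and 4597, 5165 and 5127 in DMSO libraries a, b and c. All RSV libraries lay below all DMSO libraries, and the mean was 1.51-fold lower in RSV (log2FC −0.59, standard error 0.07). ACLY, the enzyme that splits the exported citrate, was lower as well, with 3303 to 4348 normalized reads in RSV and 6922 to 6968 in DMSO (log2FC −0.84, standard error 0.09). Of 26 genes listed for the citrate cycle and citrate export, 3 had a name, and SDHB and ME3 were also lower, with log2FC of −0.34 and −0.65.

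SLC25A12 carries aspartate out of mitochondria in exchange for glutamate, a step of the malate-aspartate shuttle. It had 417.3, 465.2 and 284.6 normalized reads in RSV and 625.7, 564.8 and 599.1 in DMSO. RSV library c was the lowest of the 6, and the log2FC was −0.64 (standard error 0.16) with it and −0.44 without it. SLC25A24 and SLC25A25, which exchange ATP-Mg for phosphate, were lower in RSV with log2FC of −0.51 (standard error 0.07) and −0.59 (standard error 0.10). SLC25A25 had 228.6 to 254.7 normalized reads in RSV and 326.2 to 387.1 in DMSO. SLC25A12, SLC25A24 and SLC25A25 are the carriers among the 8 whose proteins bind calcium, a grouping chosen after their values were seen, and all 3 were lower in RSV.

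SLC25A34 (ENSBTAG00000018723), a carrier of unassigned cargo, had the largest log2FC of the 8 mitochondrial carriers at 1.53 (standard error 0.32). It had 73.5, 57.2 and 109.1 normalized reads in RSV and 24.9, 25.0 and 29.3 in DMSO, and the log2FC was 1.29 without RSV library c. SLC25A42 (ENSBTAG00000001816), the coenzyme A carrier, had 150.7, 153.2 and 150.8 normalized reads in RSV and 67.5, 68.8 and 83.5 in DMSO. Its RSV libraries lay close together, with a coefficient of variation of 0.921%, and the mean was 2.07-fold higher in RSV. SLC25A5, an ADP/ATP translocase, had 1843, 1816 and 2228 normalized reads in RSV and 1179, 1240 and 1169 in DMSO (log2FC 0.71, standard error 0.09). This gene has close paralogs, and how reads matching several of them were counted is not given in the sources used here, so its level is uncertain. SLC25A10, the dicarboxylate carrier, was 1.49-fold higher in RSV, with 1443 to 1579 against 980.4 to 1034 normalized reads.

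Amino acid and peptide transport was represented by 7 genes, of which 4 were lower in RSV and 3 were higher. SLC38A2 (SNAT2, ENSBTAG00000011105) takes up small neutral amino acids with sodium. It had 5383, 6513 and 3902 normalized reads in RSV and 8848, 8988 and 8770 in DMSO. The RSV libraries were spread widely, with a coefficient of variation of 24.9% against 1.25% in DMSO, and the log2FC was −0.78 (standard error 0.16) with RSV library c and −0.58 without it. SLC38A5 (ENSBTAG00000011854), a carrier of glutamine, serine and glycine, had 505.5, 513.1 and 447.8 normalized reads in RSV and 990.0, 866.0 and 824.7 in DMSO. It was 1.83-fold lower in RSV, the largest decrease of the 7. SLC6A9, a glycine transporter, had 1881 to 2275 normalized reads in RSV and 2973 to 3226 in DMSO (log2FC −0.53, standard error 0.08). SLC3A2 encodes the CD98 heavy chain, which brings several amino acid carriers to the cell surface and forms no pore of its own. Its 4620 to 5072 normalized reads in RSV lay below the 6584 to 7004 in DMSO, a 1.40-fold lower mean.

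The 3 higher genes of this group were SLC43A2, SLC15A4 and SLC6A16, the last without an assigned cargo and placed here by its family. SLC43A2 (LAT4, ENSBTAG00000011482) moves branched-chain amino acids without sodium, and had 878.7, 906.3 and 785.5 normalized reads in RSV and 529.2, 517.9 and 493.0 in DMSO. RSV library c lay nearest to DMSO here, and the log2FC was 0.74 with it and 0.80 without it. SLC15A4 brings histidine and small peptides out of lysosomes, and had 737.2 to 879.4 normalized reads in RSV and 557.5 to 610.4 in DMSO (log2FC 0.43, standard error 0.09). SLC6A16, an orphan member of its family, had 114.0, 106.1 and 130.9 normalized reads in RSV and 68.5, 45.9 and 67.7 in DMSO. Its mean was 1.93-fold higher in RSV, and its DMSO libraries had a coefficient of variation of 21.2%.

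Of 33 genes listed for the response to amino acid shortage, 12 had a name, and 5 of these (ATF4, PSAT1, PHGDH, GARS and WARS) had means too high to resolve. Of the other 7, 3 were higher in RSV and 4 were lower. The stress-response cytokine GDF15 had a log2FC of 1.91 (standard error 0.25) and the secreted glycoprotein STC2 one of −2.20 (standard error 0.36).

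The metal and heme transporters were higher in RSV for 3 genes and lower for 1. SLC30A1 (ENSBTAG00000010909), which exports zinc across the plasma membrane, had 1170, 1108 and 1459 normalized reads in RSV and 555.2, 658.6 and 613.8 in DMSO. Its mean was 2.05-fold higher in RSV (log2FC 1.02, standard error 0.12, and 0.91 without RSV library c). SLC39A13 (ZIP13, ENSBTAG00000019436), which releases zinc from compartments inside the cell, had 2712, 2901 and 2503 normalized reads in RSV and 3121, 3681 and 3414 in DMSO. It had the smallest absolute log2FC of the 35 genes, −0.33 (standard error 0.08), and the narrowest gap between the groups, 0.187 of the range from its lowest to its highest library. None of 8 listed genes of zinc handling had a name.

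SLC40A1 (ferroportin, ENSBTAG00000010498), the exporter of iron, had 883.3, 805.7 and 868.0 normalized reads in RSV and 512.6, 538.8 and 525.8 in DMSO. Library c was not the farthest RSV library for this gene, and the log2FC was 0.70 with it and 0.68 without it. SLC48A1 (ENSBTAG00000032331), which moves heme out of endosomes and lysosomes, had 892.5, 848.2 and 1147 normalized reads in RSV and 487.7, 475.2 and 452.4 in DMSO. Both genes were higher in RSV, SLC40A1 by 1.62-fold and SLC48A1 by 2.04-fold. Of 32 listed genes of iron and heme 4 had a name and 3 were fitted. TFRC, the receptor for iron uptake, had a log2FC of −0.38 (standard error 0.06), while FLVCR2 and ABCB6 had 1.23 (standard error 0.16) and 0.75 (standard error 0.08).

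Ion exchange and cotransport was covered by 6 genes, of which 3 were higher and 3 lower in RSV. SLC4A10 (ENSBTAG00000015317), a sodium bicarbonate transporter, had the most negative log2FC of the 35 genes, −2.59 (standard error 0.55), on few reads. The whole reads recovered in RSV were 11, 2 and 2, against 27, 19 and 19 in DMSO. RSV library a alone held most of the RSV reads, and the coefficient of variation in RSV was 103.0%. The log2FC was −3.32 without library a and −2.24 without library c. SLC8A1, the sodium/calcium exchanger that extrudes calcium, had 427.4, 431.0 and 347.2 normalized reads in RSV and 668.3, 731.6 and 705.1 in DMSO. It was 1.75-fold lower in RSV. SLC9A9, a sodium/proton exchanger of endosomes, was 1.36-fold lower, with 612.2 to 644.1 normalized reads in RSV and 840.5 to 882.3 in DMSO.

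SLC12A7, a potassium-chloride cotransporter, had 634.2, 644.2 and 880.3 normalized reads in RSV and 424.4, 430.4 and 411.8 in DMSO. RSV library c stood above the other RSV libraries, and the log2FC was 0.75 (standard error 0.14) with it and 0.60 without it. SLC9A3R1, renamed NHERF1 in RefSeq, encodes a scaffold that binds membrane proteins and is not itself a transporter, and had 566.2, 543.6 and 612.8 normalized reads in RSV and 399.5, 446.0 and 374.6 in DMSO (log2FC 0.50, standard error 0.09).

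A list of 35 other transporters and ion pumps held 24 named genes, all fitted, of which 13 were higher in RSV and 11 lower. The lists overlap, as ABCB6 and FLVCR2 were also counted with the iron and heme genes and ATP2A1 with the muscle markers. ATP1B1, a subunit of the sodium-potassium pump, had a log2FC of 1.02 (standard error 0.10). Among pumps that move calcium, ATP2A1 had a log2FC of 0.66 and ATP2A3 was also higher, with 80.9 to 111.0 normalized reads in RSV and 35.0 to 43.8 in DMSO, while ATP2A2 and ATP2B4 had −0.41 and −0.66. The water channel AQP1 had the most negative value of the list, −1.87 (standard error 0.26), and SFXN5 the most positive, 1.94 (standard error 0.32).

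**Figure D2:**
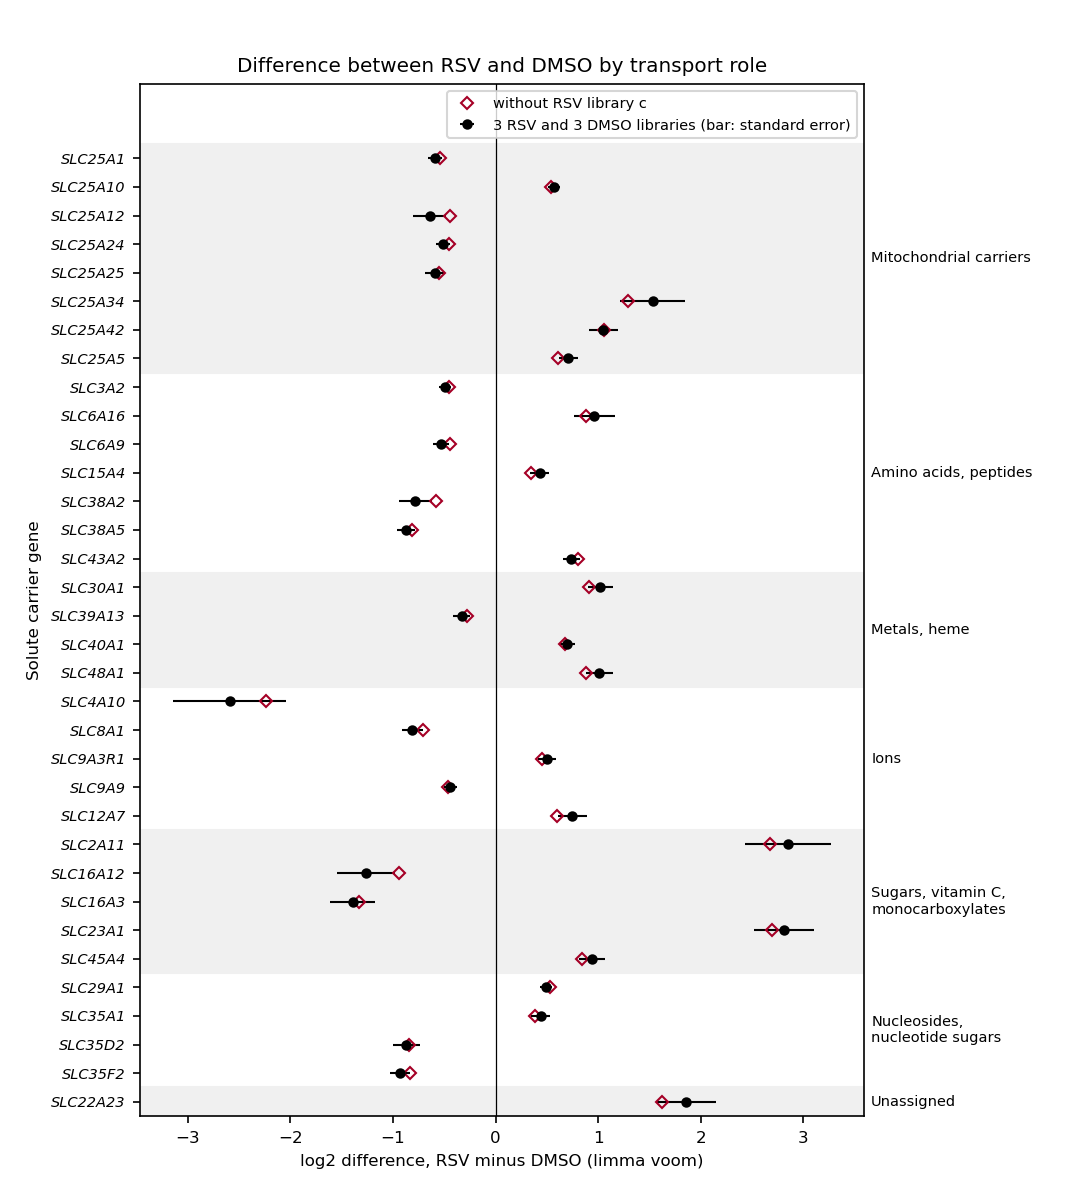
log2FC (RSV minus DMSO) of 34 of the 35 solute carrier mRNAs from limma voom, with bars of 1 standard error, grouped by transport role, and with open diamonds for the value without RSV library c. The values run from −2.59 for SLC4A10 to 2.85 for SLC2A11. Each diamond lies on the same side of 0 as the value from all 6 libraries, which follows from the lack of overlap.

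Sugar, vitamin and monocarboxylate transport held 5 genes, among them the 2 with the most positive log2FC of the 35. SLC2A11 (GLUT11, ENSBTAG00000018647), a facilitative sugar transporter, had 61.6, 42.5 and 75.9 normalized reads in RSV and 5.19, 8.34 and 10.2 in DMSO. Whole reads numbered 67, 46 and 80 in RSV against 5, 8 and 9 in DMSO, a 7.60-fold higher mean (log2FC 2.85, standard error 0.42). SLC23A1 (ENSBTAG00000010798), which takes up ascorbate (vitamin C) with sodium, had 72.6, 65.5 and 89.2 normalized reads in RSV and 9.34, 9.38 and 12.4 in DMSO. Its 79, 71 and 94 whole reads in RSV stood against 9, 9 and 11 in DMSO, a 7.30-fold higher mean (log2FC 2.81, standard error 0.29). Both genes were at low read numbers in DMSO, and without RSV library c the log2FC were 2.67 for SLC2A11 and 2.69 for SLC23A1. SLC45A4, whose substrate is not settled, had 377.5 to 487.6 normalized reads in RSV and 206.5 to 236.6 in DMSO, a 1.94-fold higher mean.

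Both carriers of the SLC16 family were lower in RSV. SLC16A3 (MCT4, ENSBTAG00000017461), which exports lactate from glycolytic cells, had 31.2, 23.1 and 23.7 normalized reads in RSV and 76.8, 69.8 and 58.7 in DMSO. Its whole reads numbered 34, 25 and 25 in RSV against 74, 67 and 52 in DMSO, and the mean was 2.63-fold lower (log2FC −1.39, standard error 0.22). SLC16A12 (ENSBTAG00000004662), a creatine carrier, had 29.4, 30.5 and 15.2 normalized reads in RSV and 52.9, 58.4 and 63.2 in DMSO. RSV library c held about 50.7% of the mean of the other RSV libraries, and the log2FC was −1.26 (standard error 0.28) with it and −0.94 without it.

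Of 20 listed genes of glycolysis and lactate metabolism 9 had a name, GAPDH and ENO1 had means too high to resolve, and the other 7 were all lower in RSV. PGK1, an enzyme of glycolysis, had 2472 to 3672 normalized reads in RSV and 5358 to 5512 in DMSO (log2FC −0.84, standard error 0.12). LDHA, which makes lactate, had 3647 to 4967 in RSV and 6502 to 6886 in DMSO (log2FC −0.64, standard error 0.10). These genes also have names only because the authors called them DE.

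Nucleoside and nucleotide-sugar transport held 4 genes. SLC29A1 (ENT1, ENSBTAG00000015131), the equilibrative nucleoside transporter, had 5612, 5714 and 5179 normalized reads in RSV and 3661, 4016 and 4109 in DMSO, a 1.40-fold higher mean. SLC35A1, which carries CMP-sialic acid into the Golgi, had 775.8, 765.1 and 888.9 normalized reads in RSV and 592.5, 555.5 and 638.6 in DMSO (log2FC 0.44, standard error 0.09). The members that were lower lay further from 0 than these 2. SLC35D2, a carrier of UDP-N-acetylglucosamine, had 84.6, 100.6 and 86.3 normalized reads in RSV and 159.8, 180.3 and 156.8 in DMSO (log2FC −0.87, standard error 0.13). SLC35F2 had 348.4, 369.2 and 294.1 normalized reads in RSV and 681.8, 610.7 and 625.0 in DMSO (log2FC −0.93, standard error 0.10).

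SLC22A23 (ENSBTAG00000010943) belongs to the organic ion transporter family and has no settled substrate. It had 168.2, 179.0 and 288.4 normalized reads in RSV and 52.9, 51.1 and 65.4 in DMSO. The mean was 3.75-fold higher in RSV, and the log2FC was 1.86 (standard error 0.29) with RSV library c, which was the highest, and 1.62 without it.

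**Figure D3:**
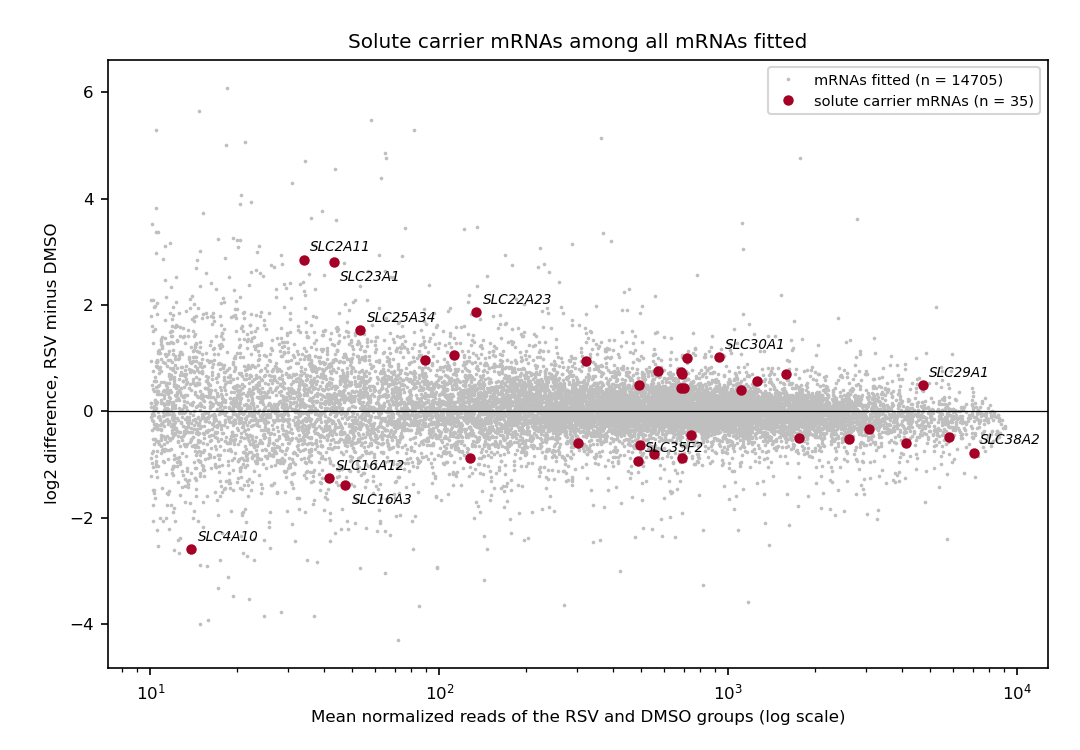
log2FC (RSV minus DMSO) against the mean of normalized reads, on a log10 axis, for the 14705 mRNAs fitted, with the 35 solute carrier mRNAs marked. The marked genes have means from 13.9 to 7067 normalized reads, and the largest absolute values, those of SLC2A11, SLC23A1 and SLC4A10, lie at low means.

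The solute carrier mRNAs were measured at a median of 685.1 normalized reads, where all mRNAs fitted had a median of 392.8 and the named mRNAs one of 712.3. Levels were not compared between genes, since reads were not divided by transcript length. The adjusted P-values that selected the genes depend on the spread within each group, so the spread is given as a description. The coefficient of variation had a median of 10.3% in RSV and 6.40% in DMSO over the 35 genes, and it was higher in RSV for 25 of the 35. The same held for 1357 of the 1748 named mRNAs and for 10084 of the 14705 mRNAs fitted. Over all mRNAs fitted the medians were 10.15% in RSV and 6.11% in DMSO, so the wider RSV spread was not particular to these genes.

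RSV library c was the library farthest from DMSO for 26 of the 35 solute carrier mRNAs (74.3%), 14 of the 19 higher and 12 of the 16 lower. Over the named mRNAs this share was 76.3%, and over all mRNAs fitted it was 60.0%. Library a was the farthest for 4 of the 35 and library b for 5. The normalized reads of library c were at a median of 119.0% of the mean of the other RSV libraries for the 19 higher genes and at 87.6% for the 16 lower genes. Among the DMSO libraries the farthest from RSV was a for 14 genes, b for 11 and c for 10. Without RSV library c the median absolute log2FC of the 35 genes was 0.68 in place of 0.75. Since no groups overlapped, leaving out this library could not create overlap and could hardly reverse a direction.

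**Figure D4:**
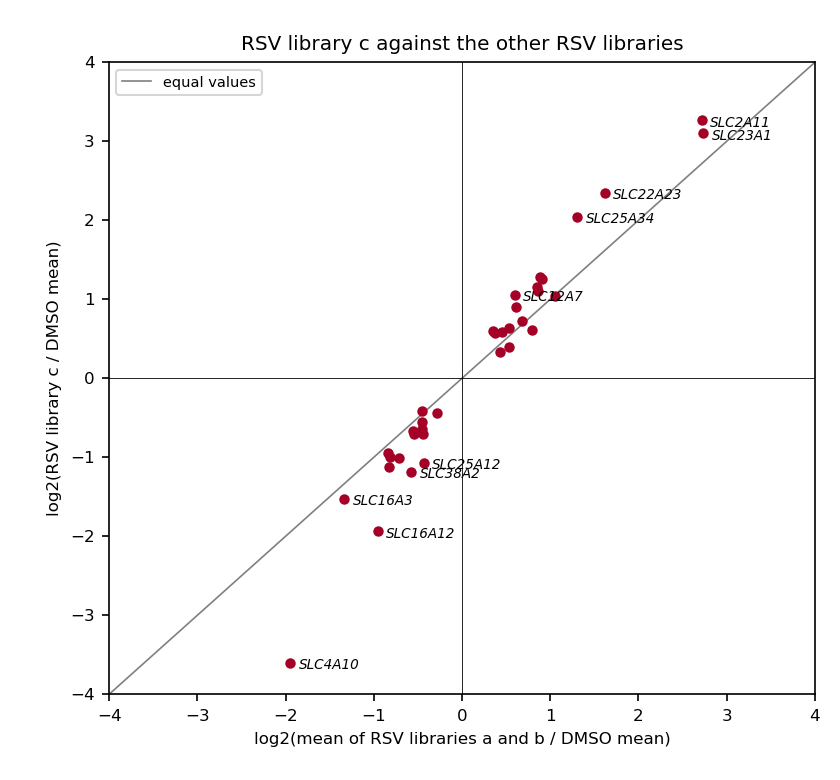
log2 of normalized reads in RSV library c over the DMSO mean, against log2 of the mean of RSV libraries a and b over the DMSO mean, with 1 point for each of the 35 solute carrier mRNAs and a line of equal values. Most genes higher in RSV lie above the line (library c at a median of 119.0% of the other RSV libraries) and most genes lower in RSV lie below it (median 87.6%).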

How the data were processed

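RNA was sequenced from 3 RSV and 3 DMSO cultures, grouped by their labels. Per the deposited table, the authors gave for each mRNA a group mean of size-factor-scaled read counts, which lost its decimal point for most mRNAs. The authors compared groups with DESeq. Their log2 fold changes, P-values and adjusted P-values, the miRNA block and the FPKM values of the study's sheets were not used. The labels' processing notes name Bowtie 0.12.9. The aligner and counter of the mRNA reads are not given in the sources used here.

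Whole reads of each library were recovered by searching for the 3 integers whose sum over the size factors gives all 15 digits of a mean, taking the lowest decimal place with a combination and at most 0.02 combinations expected by chance. In 995 simulated means 993 came out right, and 2, with all reads multiples of 10, were read 10 times too low. The simulation used the RSV size factors only. The highest recovered means, such as 8869 for SLC38A2 in DMSO, lay above the simulated range and were not covered by it. limma 3.58.1 voom in R 4.3.3 was fitted to the 14705 mRNAs averaging 10 normalized reads or more, with the recovered size factors setting library sizes and no replicate block, and calls used a Benjamini-Hochberg adjusted p under 0.05. The fit was tested on simulated data. Standard errors and p-values reflect only the spread between these 3 cultures per group. For each mRNA that spread was drawn toward a value estimated over all mRNAs fitted. The other steps used Python 3.11.15, numpy 2.4.6, pandas 2.3.3, numba 0.67.0 and matplotlib 3.10.9.

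The genes and lists were chosen with earlier results of these data known. Every solute carrier gene with a name entered the counts and 34 of the 35 were described singly, the other one being not reported here, with values in every library for up to 4 genes per role with the largest absolute log2FC at least. Genes were named from the study's sheets, of which a shortened copy was used. In RefSeq (ARS-UCD2.0) 34 of the 35 symbols matched, and SLC9A3R1 matched as a synonym. That build differs from the files', so no coordinates are given. Alternatives were scaling by summed recovered reads, limma trend, other pseudocounts, no minimum mean, and each library left out.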

Additional observations from a re-analysis of the deposited data

How the results depend on the processing

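The direction of all 35 solute carrier mRNAs (19 higher and 16 lower in RSV) was the same under every alternative run. Their lack of overlap held when libraries were scaled by summed recovered reads, which leave out 324 mRNAs with means too high to resolve. Leaving out a library cannot create overlap, so those runs could not test it. Without overlap, a library left out, limma trend, a pseudocount or no minimum mean could also hardly reverse a direction. Of 385 single values, 383 moved by less than the spread between libraries. Leaving out 1 library of a group can hardly move a value by more than that spread, so this count is no evidence of stability. The other 2 values moved more when libraries were scaled by summed reads, SLC25A10 to 0.63 and SLC9A9 to −0.39. That scaling moved the median log2FC of all mRNAs from 0.005 to 0.061, and split 5069 calls into 3043 higher and 2026 lower, 60% higher against 49.3% of 4993 calls with the recovered size factors. RSV library c was then the farthest from DMSO for 27 of the 35, an alternative chosen after seeing the data. Without a minimum mean 4822 mRNAs were called, and by limma trend 5194. Leaving out 1 library gave 2483 to 6207 calls, with 3485 without RSV library a, 5478 without b and 6207 without c, and with 2620 without DMSO library a, 2716 without b and 2483 without c. SLC25A12 was not called without any 1 of the DMSO libraries, SLC39A13 without DMSO library b or c, and SLC16A12 without c. The cause was not tested. No paired analysis was possible because the deposited table has no column of a single sample and the recovered libraries carry no replicate numbers. Depth limits SLC4A10, SLC2A11 and SLC23A1 most, with fewer than 10 reads in some libraries, and intervals from counting were not computed.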
